A study of Olea europaea with 12 samples.

Results

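Olive fruit mesocarp at 30 weeks after flowering (WAF) was compared with mesocarp at 26 WAF across all measured genes. The comparison used 6 of the 12 libraries of the series, 3 at 30 WAF and 3 at 26 WAF, and 26131 of the 51008 genes in the deposited table, those that reached an FPKM of 1 in 3 or more of the 12 libraries. Both groups were fruit of Olea europaea, cultivar Koroneiki, a Greek oil olive, from field-grown trees in Western Greece. They carried no treatment and differed in fruit age alone, as far as the labels say. The other 6 libraries, at 17 and 21 WAF, entered the estimate of the spread and are quoted for context. The libraries of each age are lettered A, B and C, with no word in the labels on whether each stands for its own tree or fruit pool. P-values therefore measure the spread between these libraries only, part of which may be technical. Fruit age is also the date of collection, and what the fruit did with age and what the season did to the fruit cannot be told apart.

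The mesocarp is the flesh of the olive drupe and the tissue in which most of the oil is laid down. During ripening the green fruit loses chloroplast function and chlorophyll, the skin and then the flesh turn purple with anthocyanins, walls loosen, and the phenolic secoiridoids that make olives bitter are converted. The surface is covered by a cuticle of cutin and wax made by the epidermis, and triterpenic acids accumulate in that wax. Fatty acids are made in plastids and assembled into triacylglycerol at the endoplasmic reticulum, while the lipoxygenase pathway turns unsaturated fatty acids into jasmonates and into the volatile aldehydes of oil aroma.

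FPKM, fragments scaled for transcript length and library total, summed to 841143 to 845585 in the 30 WAF libraries and 805874 to 825000 in the 26 WAF libraries. How many reads lie behind them is not given in the sources used here. Correlations of log2(FPKM + 1) across genes were 0.992 to 0.995 within 30 WAF, 0.995 to 0.996 within 26 WAF and 0.941 to 0.948 between the ages. Library C at 30 WAF listed 36754 genes above 0, the fewest of the 12. In the text, a log2 change is 30 WAF minus 26 WAF on the log2(FPKM + 1) scale, which understates the change of genes at low FPKM. A gene is called higher or lower where the limma test gave an adjusted p under 0.05. Means are given ± SD (n = 3 libraries per age), and levels of different genes are compared as FPKM, which are per length.

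Between 26 and 30 WAF, 10984 genes were higher and 6343 lower at 30 WAF, which is 42% and 24.3% of the genes tested (66.3% together), and 8804 were not called. Most of these changes were small, since the log2 change was under 0.5 in size for 66.2% of the genes called higher and 56% of those called lower. At a log2 change of at least 1 the balance was close to even, with 964 genes higher (3.69%) and 1042 lower (3.99%). At a log2 change of at least 2 more genes fell than rose, 241 against 155. The largest shifts were therefore more often losses, although rises outnumbered falls overall. The libraries of the ages did not overlap in 11351 genes with 30 WAF above 26 WAF (43.4%) and in 6601 genes with 30 WAF below it (25.3%). The split of calls depended on scaling. As deposited, 63.4% of the called genes were higher at 30 WAF, against 58.8% after scaling to TPM and 51.3% after median-of-ratios scaling, which put 8517 genes higher and 8089 lower. The median log2 change of all tested genes was 0.10 as deposited and 0.01 after median-of-ratios scaling, so small rises of many genes are to be read against that shift. The counts of each gene list below are likewise to be read against the 42% higher and 24.3% lower over all tested genes. Counts at a log2 change of at least 1 are to be read against 3.69% higher and 3.99% lower.

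**Figure D1:**
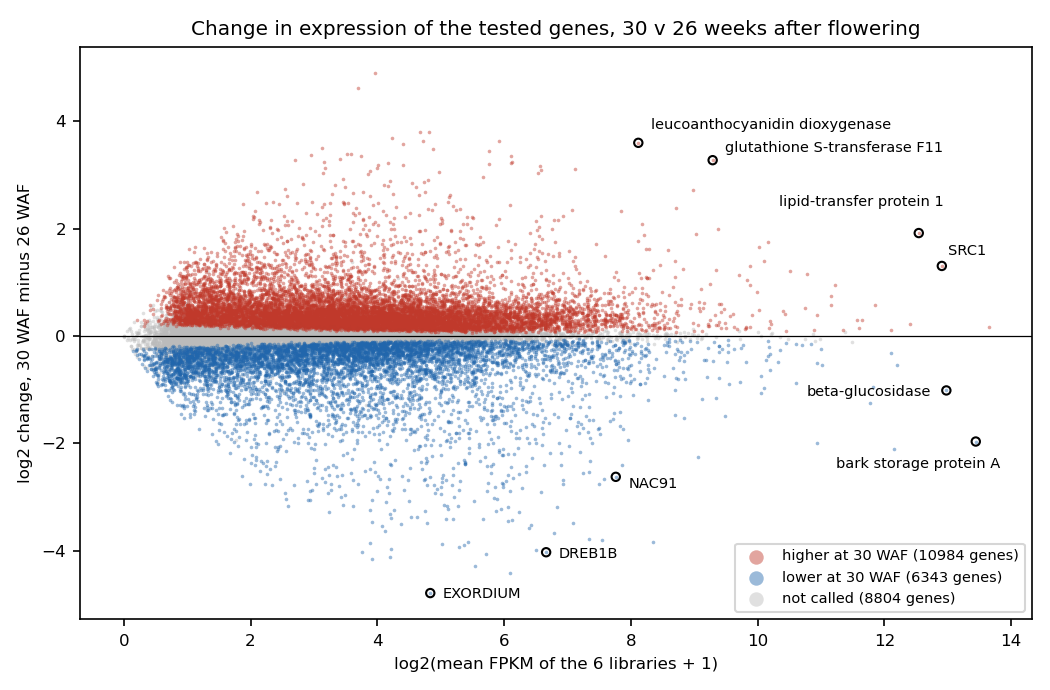
Log2 change at 30 WAF minus 26 WAF (vertical axis) against the log2 mean FPKM of the 6 libraries (horizontal axis) for the 26131 tested genes, 1 point per gene, coloured by call. Named genes are circled: the anthocyanin enzyme leucoanthocyanidin dioxygenase rose by 3.6 on the log2 scale, while EXORDIUM, at -4.79, had the lowest change of the genes named.

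Many of the genes that moved were at an extreme of the 4 ages sampled. Of the genes higher at 30 WAF, 7582 had their highest mean of the 4 ages there, and 2792 had it at 17 WAF. Of the genes lower at 30 WAF, 5075 had their lowest mean of the 4 ages at that age. After median-of-ratios scaling these counts were 6337, 1692 and 6089. Because the genes were called for their difference from 26 WAF, an extreme at 30 WAF was in part given by that choice. A set of 556 genes was at or above 1 FPKM in all 3 libraries at 30 WAF and under 1 in all 3 at 26 WAF, and 374 genes showed the opposite.

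Among the 12 largest rises were 2 genes that were listed at 0 in every library at 26 WAF. LOC111411275, described as a homologue of ZINC INDUCED FACILITATOR 1, a vacuolar transporter in Arabidopsis, had 34.8, 25 and 27.5 FPKM at 30 WAF, against 0, 0 and 0 FPKM at 26 WAF. LOC111372423, a serine carboxypeptidase-like gene, had 22.9, 19 and 29.9 FPKM at 30 WAF, against 0, 0 and 0 FPKM at 26 WAF. Both were thus seen at 30 WAF in all libraries and at 26 WAF in none, and no fold is given against a group listed at 0. Both genes passed the filter only through their 30 WAF libraries, so no p-value is given for them. Of the other 10, 4 encode enzymes of the flavonoid and anthocyanin pathway and are described with it. GAST1 (LOC111382674), of a gibberellin-regulated family of small secreted peptides, averaged 51.8 ± 1.66 FPKM at 30 WAF and 2.81 ± 0.267 FPKM at 26 WAF (log2 change 3.79, adjusted p = 4.8e-13). A glycine-rich protein 5 (LOC111377308) averaged 33.8 ± 1.99 FPKM at 30 WAF and 1.7 ± 0.26 FPKM at 26 WAF, and the NRT1/PTR FAMILY 5.1 transporter gene (LOC111403048) 47.8 ± 0.812 FPKM at 30 WAF and 2.94 ± 0.283 FPKM at 26 WAF. A cytoplasmic dynein light chain (LOC111395703) averaged 38.1 ± 0.462 FPKM at 30 WAF and 2.33 ± 0.71 FPKM at 26 WAF after higher levels at 17 and 21 WAF. A gibberellin 2-beta-dioxygenase (LOC111397105), of the enzymes that inactivate gibberellins, had 14.3, 16.5 and 13.8 FPKM at 30 WAF, against 0.08, 1.57 and 0 FPKM at 26 WAF.

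The 12 largest falls were mostly of regulators and of cell surface genes. EXORDIUM (LOC111389935), a brassinosteroid-responsive growth gene in Arabidopsis, had 0.98, 1.49 and 0.61 FPKM at 30 WAF, against 53.8, 51.2 and 57.2 FPKM at 26 WAF. LOB domain-containing protein 41 (LOC111386368) had 5.01, 5.08 and 5.47 FPKM at 30 WAF, against 131, 126 and 132 FPKM at 26 WAF, and NAC domain-containing protein 90 (LOC111381277) had 3.36, 3.49 and 3.81 FPKM at 30 WAF, against 89.97, 87.1 and 84.8 FPKM at 26 WAF. The 30 WAF libraries were far below all 26 WAF libraries in each of the 3 genes, with log2 changes of -4.79, -4.4 and -4.28. A FERONIA receptor kinase copy (LOC111385922), of a family that senses the state of the cell wall, averaged 0.623 ± 0.27 FPKM at 30 WAF and 27.6 ± 3.65 FPKM at 26 WAF. Trehalose-phosphate phosphatase J (LOC111397422), which removes the phosphate from the sugar signal trehalose 6-phosphate, averaged 0.58 ± 0.333 FPKM at 30 WAF and 24.4 ± 0.569 FPKM at 26 WAF. Calmodulin-binding protein 60 C (LOC111409968) averaged 3.85 ± 0.316 FPKM at 30 WAF and 72.4 ± 3.87 FPKM at 26 WAF (log2 change -3.92, adjusted p = 2.4e-15). The other 6, among them DREB1 factors, COBRA-like 7 and a xyloglucan enzyme, are given with their groups below. Several had been higher still at the younger ages: NAC90 averaged 351, 211, 87.3 and 3.55 FPKM at 17, 21, 26 and 30 WAF.

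The largest losses in FPKM were of bark storage protein A genes and of the beta-glucosidase described with the bitterness genes. A bark storage protein A gene (LOC111384066), of a family of vegetative storage proteins, had 4547, 4505 and 4566 FPKM at 30 WAF, against 17641, 17734 and 17771 FPKM at 26 WAF, and its second copy (LOC111399394) had 1746, 1732 and 1694 FPKM at 30 WAF, against 7464, 7118 and 7595 FPKM at 26 WAF. Both copies fell about as much as each other, with log2 changes of -1.96 and -2.1 (adjusted p = 1.1e-14 and 2.1e-14), although reads shared by such copies may have been split between them. The sequence over 17, 21, 26 and 30 WAF was 5417, 41802, 17715 and 4539.7 FPKM for LOC111384066. A putative defensin-like protein 179 (LOC111386030) averaged 788 ± 15 FPKM at 30 WAF and 3128 ± 181 FPKM at 26 WAF. Apart from genes described with their lists, other large losses were NDR1/HIN1-like protein 3 (LOC111404003), with 688 ± 23.5 FPKM at 30 WAF and 1437 ± 27.3 FPKM at 26 WAF, formate dehydrogenase (LOC111392352), with 1697 ± 5.32 FPKM at 30 WAF and 2456 ± 46.6 FPKM at 26 WAF, and kirola, a pathogenesis-related-like fruit protein (LOC111410001), with 3919 ± 31.6 FPKM at 30 WAF and 4851 ± 89.9 FPKM at 26 WAF. These last changes were modest in fold, with log2 changes of -1.06, -0.53 and -0.31.

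The most abundant described transcript at 30 WAF was a metallothionein-like protein 1 (LOC111369652), a small metal-binding protein, with 13579 ± 303 FPKM at 30 WAF and 12069.5 ± 195 FPKM at 26 WAF (log2 change 0.17, adjusted p = 0.0012). SRC1 (LOC111387830), named for a cold-regulated soybean gene, came next at 10924 ± 404 FPKM at 30 WAF and 4428 ± 365 FPKM at 26 WAF. Non-specific lipid-transfer protein 1 (LOC111408002) gained most FPKM of all, with 9430.4 ± 263 FPKM at 30 WAF and 2499 ± 186 FPKM at 26 WAF. BURP domain protein RD22 (LOC111381170), a dehydration-responsive cell wall protein, averaged 1767 ± 72.7 FPKM at 30 WAF and 523 ± 20.9 FPKM at 26 WAF. A phosphoprotein ECPP44 gene of the dehydrin type (LOC111382197) averaged 4439.8 ± 65 FPKM at 30 WAF and 2959.7 ± 26.9 FPKM at 26 WAF, and its relative LOC111367581 2858 ± 81.7 FPKM at 30 WAF and 1704 ± 16.1 FPKM at 26 WAF. Some other abundant transcripts changed less: a polyubiquitin gene (LOC111402507) averaged 3549.6 ± 57.9 FPKM at 30 WAF and 2868 ± 61.1 FPKM at 26 WAF, and a peptidyl-prolyl isomerase (LOC111410563) 5852 ± 86.5 FPKM at 30 WAF and 5040.5 ± 524 FPKM at 26 WAF. In that last gene library B at 26 WAF was lower than its companions, which widened the spread.

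Genes of pigment synthesis rose. Of the flavonoid and anthocyanin enzymes, 21 of 34 tested members were higher and 4 lower at 30 WAF, with a median log2 change of 0.68, against 42% higher, 24.3% lower and a median of 0.10 over all tested genes. 16 of the 34 rose by a log2 change of at least 1 and none fell by as much. Following the order of the pathway, a chalcone synthase (LOC111374392), which makes the flavonoid skeleton, had 96.7, 102 and 95 FPKM at 30 WAF, against 9.41, 7.3 and 7.79 FPKM at 26 WAF. Flavanone 3-dioxygenase (LOC111401282) had 168, 173 and 169 FPKM at 30 WAF, against 18.9, 18.8 and 19.9 FPKM at 26 WAF. Dihydroflavonol 4-reductase (LOC111409594) had 109, 109 and 115 FPKM at 30 WAF, against 7.94, 7.8 and 8.49 FPKM at 26 WAF. These 3 enzymes were higher in every 30 WAF library than in any 26 WAF library by several fold, with log2 changes of 3.44, 3.08 and 3.62. Leucoanthocyanidin dioxygenase (LOC111368826), which makes the coloured anthocyanidin, had 504, 518 and 514 FPKM at 30 WAF, against 43.8, 39.2 and 41.3 FPKM at 26 WAF (log2 change 3.6, SE 0.047, adjusted p = 4.5e-15). Its level was 12.4 times that at 26 WAF and it was the most abundant of the list at 30 WAF. Anthocyanidin 3-O-glucosyltransferase (LOC111374585), which makes the pigment stable by adding a sugar, had 57.1, 51 and 50.3 FPKM at 30 WAF, against 3.65, 4.19 and 3.67 FPKM at 26 WAF, and the copies LOC111374594 and LOC111405814 rose by 3.02 and 2.85 on the log2 scale. Not all members annotated as glycosyltransferases of anthocyanidins rose. Anthocyanidin 3-O-glucosyltransferase 5 (LOC111383563), the second most abundant member over the 6 libraries, did not pass the test, with 172 ± 0.946 FPKM at 30 WAF and 175 ± 3.12 FPKM at 26 WAF (adjusted p = 0.36), and LOC111372287 and LOC111386713 fell by 1.48-fold and 1.5-fold.

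Genes beside the pathway moved with it. Glutathione S-transferase F11 (LOC111397175), of a class that in other plants carries anthocyanins to the vacuole, had 1108, 1136 and 1159 FPKM at 30 WAF, against 118, 111 and 120.3 FPKM at 26 WAF. It took a large part of the summed FPKM of its list at 30 WAF, which was 2232, 2225 and 2251. At 26 WAF it took a small part of sums of 1292, 1278 and 1299. Of the 30 tested glutathione S-transferases 12 were higher and 11 lower (median log2 change 0.01, and -0.10 after median-of-ratios scaling). The MYB factors MYB114 (LOC111389429) and MYB113 (LOC111409128), named for Arabidopsis activators of anthocyanin synthesis, were both higher. MYB114 averaged 16.7 ± 0.658 FPKM at 30 WAF and 1.52 ± 0.159 FPKM at 26 WAF, and MYB113 11.9 ± 0.914 FPKM at 30 WAF and 2.3 ± 0.255 FPKM at 26 WAF. The homologue of MYB-related protein 330 (LOC111409257) averaged 32 ± 1.76 FPKM at 30 WAF and 4.24 ± 0.252 FPKM at 26 WAF. Upstream, of the phenylpropanoid entry enzymes 29 of 49 tested members were higher and 5 lower at 30 WAF, with a median log2 change of 0.37. Phenylalanine ammonia-lyase (LOC111399604), the entry step, had 36.4, 38.1 and 37.4 FPKM at 30 WAF, against 3.1, 3.3 and 3.23 FPKM at 26 WAF. Trans-cinnamate 4-monooxygenase (LOC111393218) averaged 316 ± 8.37 FPKM at 30 WAF and 243 ± 2.16 FPKM at 26 WAF, a smaller rise of 0.37 on the log2 scale. Caffeoylshikimate esterase (LOC111370048) averaged 188 ± 5.56 FPKM at 30 WAF and 41.3 ± 2.63 FPKM at 26 WAF, and cinnamoyl-CoA reductase-like SNL6 (LOC111410576) 639 ± 6.85 FPKM at 30 WAF and 269 ± 4.95 FPKM at 26 WAF. Some cinnamoyl-CoA reductase 1 copies went the other way: LOC111380908 and LOC111380910 fell by 1.23-fold and 1.24-fold, and LOC111380905 was listed at 0 in all 3 libraries at 30 WAF, against 7.43, 3.06 and 5.49 FPKM at 26 WAF.

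**Figure D2:**
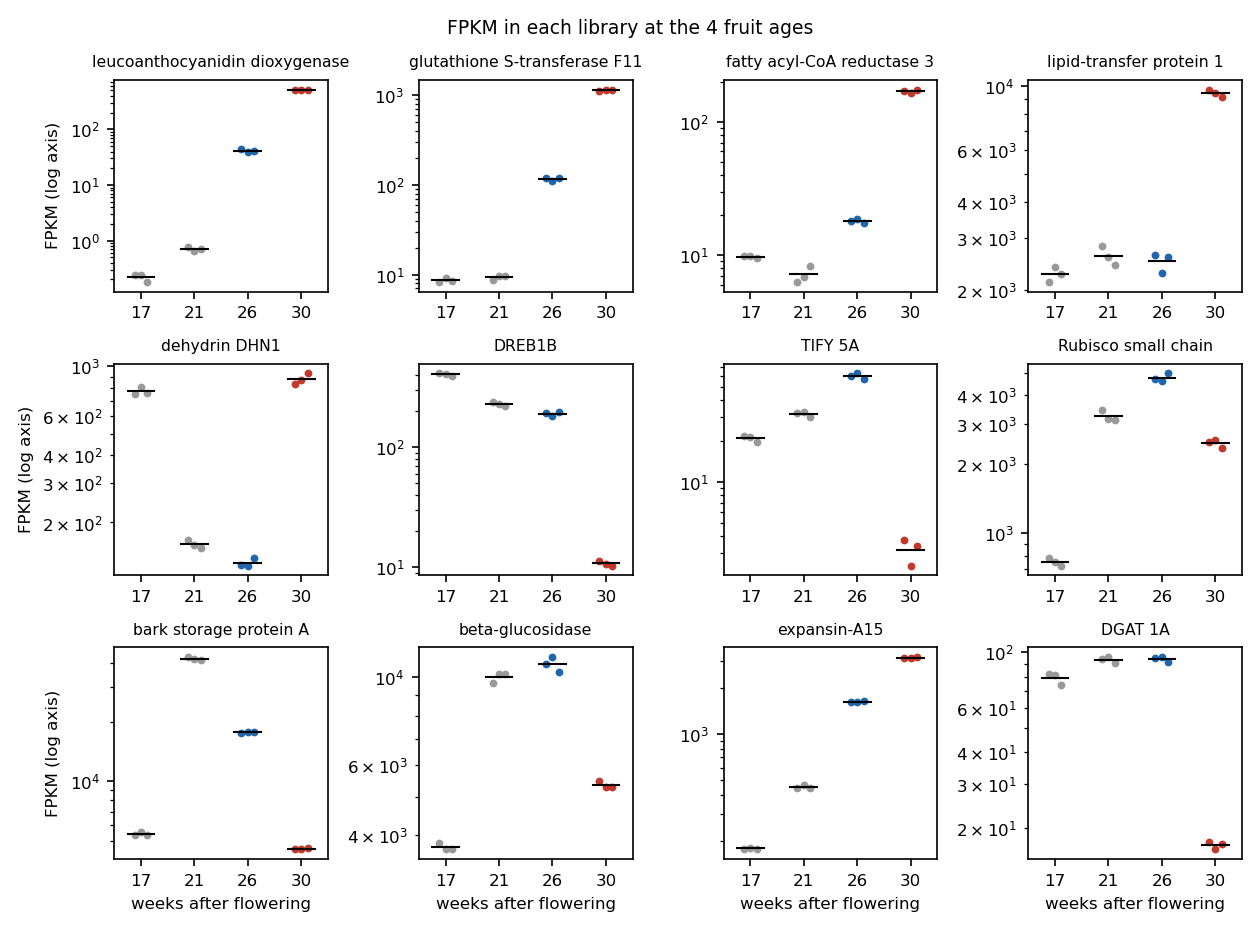
FPKM of 12 genes (log axes) in each library at 17, 21, 26 and 30 WAF, 3 points per age with the mean as a bar, 30 WAF in red and 26 WAF in blue. Leucoanthocyanidin dioxygenase averaged 0.22, 0.707, 41.4 and 512 FPKM over the 4 ages, whereas the dehydrin gene, at 774, 160.0, 132 and 876, was high at both ends.

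Surface lipid genes rose by the largest list median. Of the cuticle and wax genes, 37 of 49 tested members were higher and 4 lower at 30 WAF, with a median log2 change of 1.03, and 25 rose by at least 1. Fatty acyl-CoA reductase 3 (LOC111391318), which makes the primary alcohols of wax, had 170.3, 164 and 175 FPKM at 30 WAF, against 18.1, 18.7 and 17.5 FPKM at 26 WAF. 3-Ketoacyl-CoA synthase 19 (LOC111405499), of the enzymes that lengthen fatty acids for wax, had 164, 165 and 162 FPKM at 30 WAF, against 19.5, 19.2 and 18.9 FPKM at 26 WAF. ECERIFERUM 1 (LOC111373242), an alkane-forming protein in Arabidopsis, had 14.5, 15.4 and 15.9 FPKM at 30 WAF, against 0.73, 0.92 and 0.9 FPKM at 26 WAF. These 3 genes were 9.38, 8.52 and 18 times as high at 30 WAF as at 26 WAF, and their libraries did not overlap. The most abundant members rose less: ECERIFERUM 3 (LOC111385303) averaged 567 ± 1.36 FPKM at 30 WAF and 264 ± 10.9 FPKM at 26 WAF, 3-ketoacyl-CoA synthase 10 (LOC111388105) 415 ± 14.8 FPKM at 30 WAF and 197 ± 5.74 FPKM at 26 WAF, and the cutin enzyme glycerol-3-phosphate 2-O-acyltransferase 4 (LOC111388219) 268 ± 9.09 FPKM at 30 WAF and 81.2 ± 5.15 FPKM at 26 WAF. Cytochrome P450 86A22 (LOC111407574) and P450 77A2 (LOC111378346), of families that oxidise cutin monomers, rose 7.29-fold and 8.65-fold. The 4 that fell were 3 copies of 3-ketoacyl-CoA synthase 11 and a copy of synthase 4. Of these LOC111398707 fell to 7.95 FPKM at 30 WAF, against 37.9 FPKM at 26 WAF (log2 change -2.12, adjusted p = 2.3e-14) and LOC111407565 fell by 1.13-fold.

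Secreted lipid-transfer proteins, which bind lipids in the apoplast and are often abundant in epidermis, went with the cuticle genes. 10 of 15 tested members were higher and 3 lower, with a median log2 change of 0.83, and 7 rose by at least 1. The summed FPKM of the list was 12365, 12155 and 11975 at 30 WAF and 4092, 3547 and 4086 at 26 WAF. Most of that sum came from LOC111408002, which had 9691, 9434 and 9166 FPKM at 30 WAF, against 2625, 2286 and 2587 FPKM at 26 WAF. LOC111408003 had 1976, 2018 and 2101 FPKM at 30 WAF, against 923, 762 and 959 FPKM at 26 WAF. Library B at 26 WAF was the lowest of its age in both, and the rise in each was far larger than that gap. Scarcer members rose further in proportion, LOC111405245 to 20.0 ± 1.46 FPKM at 30 WAF, against 1.0 ± 0.277 FPKM at 26 WAF and LOC111382107 to 18.2 ± 0.505 FPKM at 30 WAF, against 0.963 ± 0.242 FPKM at 26 WAF. One abundant copy did not pass the test, LOC111408987, with 228 ± 2.59 FPKM at 30 WAF and 236 ± 15.1 FPKM at 26 WAF.

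The epidermal share of the tissue was described with the homeobox genes of the HD-ZIP IV class, which mark epidermis in other plants. Of all 26 members 3 were at 0 in all 6 libraries. Of 17 tested members 9 were higher and 2 lower, with a median log2 change of 0.16. That is 52.9% and 11.8%, against 42%, 24.3% and a median of 0.10 over all tested genes. After median-of-ratios scaling 7 were higher and 3 lower, with a median of 0.09. The highest mean of the 4 ages was at 17 WAF for 11 members and at 30 WAF for 4. The summed FPKM of the tested members was 241, 242 and 241 at 30 WAF and 181, 179 and 178 at 26 WAF. The sum of the cuticle and wax genes was 2547, 2567 and 2588 at 30 WAF and 1041, 1054 and 1028 at 26 WAF, a larger relative difference. GLABRA 2 (LOC111406410) averaged 43 ± 1.31 FPKM at 30 WAF and 23.3 ± 0.992 FPKM at 26 WAF, and the ANTHOCYANINLESS 2 copies LOC111391553 and LOC111410217 rose by 0.16 and 0.11 on the log2 scale. The largest rises of the list were of another ANTHOCYANINLESS 2 copy (LOC111410766), with 19.7, 19.4 and 21.1 FPKM at 30 WAF, against 8.24, 8.13 and 7.84 FPKM at 26 WAF (log2 change 1.22, adjusted p = 2.7e-10), and of GLABRA 2 and PROTODERMAL FACTOR 2 (LOC111395207), with log2 changes of 0.86 and 0.84. LOC111410766 had averaged 90.2 FPKM at 17 WAF. The 2 members called lower are not named here. In bulk tissue a larger share of epidermal cells and more RNA per cell cannot be told apart, and the part of either in the rise of the cuticle genes was not tested.

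**Figure D3:**
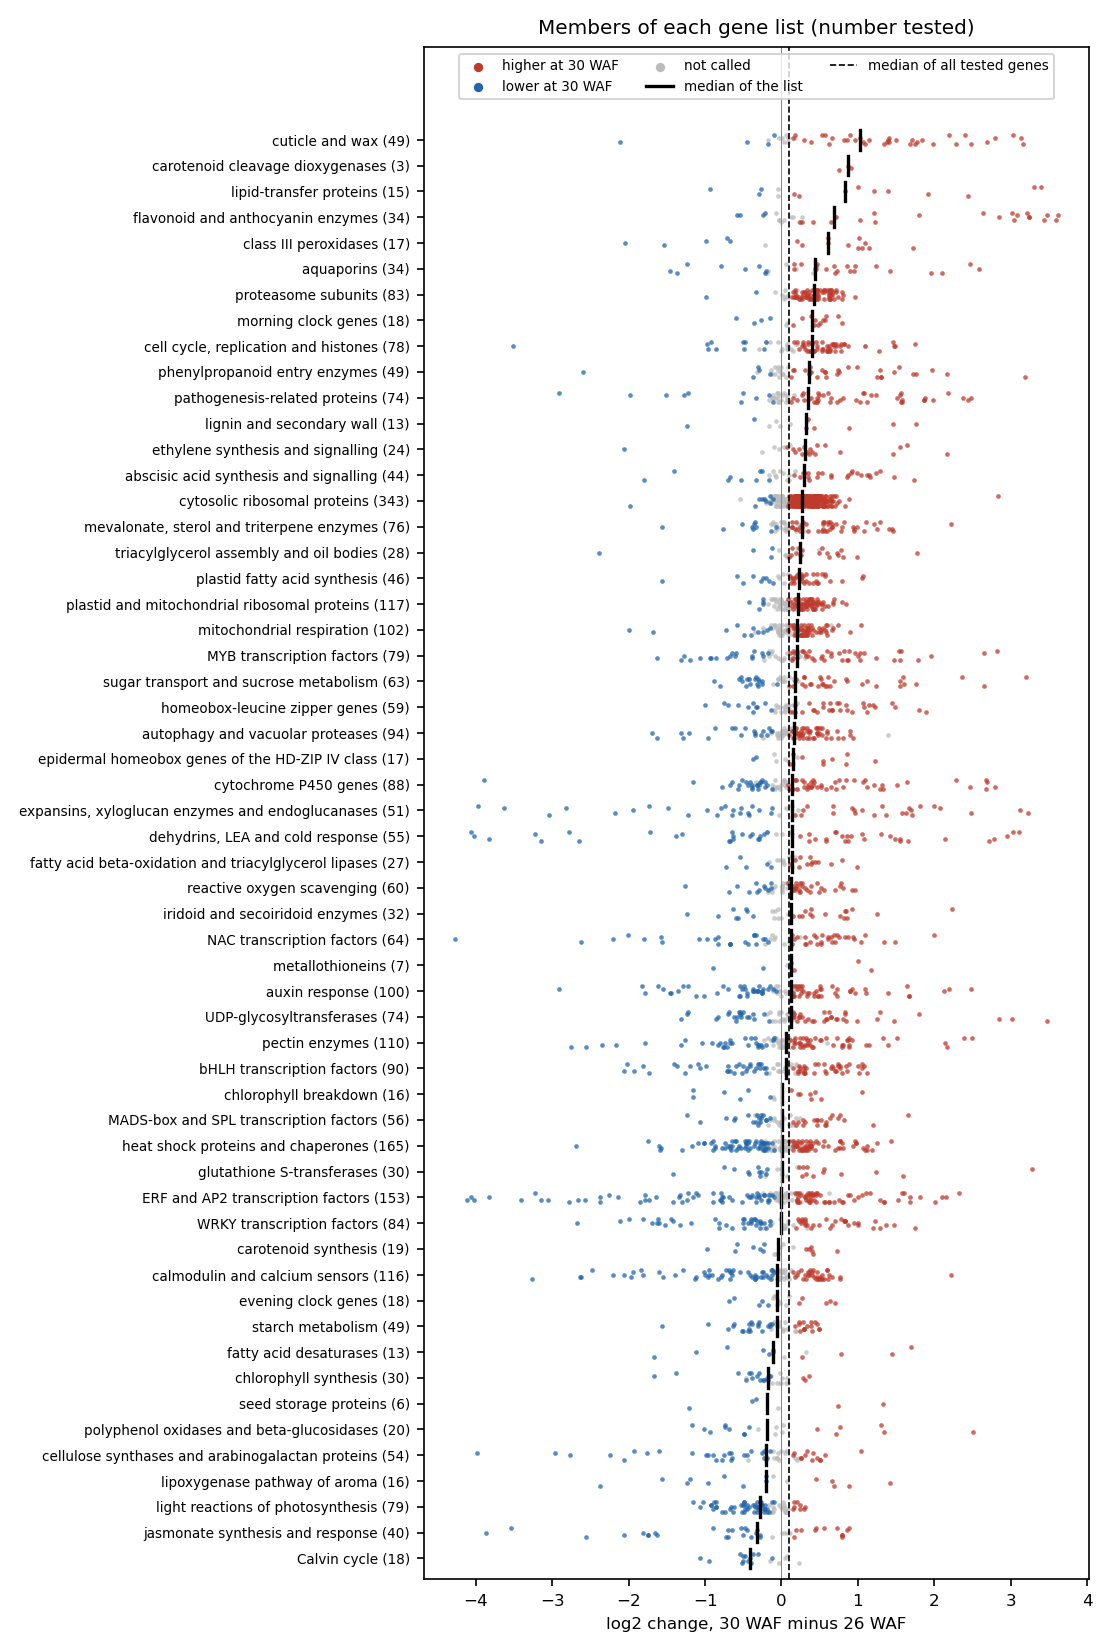
Log2 change at 30 WAF minus 26 WAF for each tested member of 56 gene lists (points, coloured by call), with the list median as a bar and the median of all tested genes as a dashed line. The lists run by median, with the cuticle and wax list at 1.03 on top and the Calvin cycle list at -0.41 at the bottom.

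Photosynthesis genes fell together but by modest amounts. Of the genes of the light reactions, 8 of 79 tested members were higher and 54 lower at 30 WAF, with a median log2 change of -0.28, and of the Calvin cycle genes 0 of 18 tested members were higher and 13 lower at 30 WAF, with a median log2 change of -0.41. The Rubisco small chain (LOC111391236), of the enzyme that fixes carbon dioxide, had 2489, 2558 and 2346 FPKM at 30 WAF, against 4707, 4598 and 4969 FPKM at 26 WAF. Glyceraldehyde-3-phosphate dehydrogenase B (LOC111380808) had 56.3, 56.2 and 53.8 FPKM at 30 WAF, against 119, 113 and 120.3 FPKM at 26 WAF. Both were lower in every 30 WAF library, with log2 changes of -0.95 and -1.07. Rubisco activase (LOC111405975) averaged 243 ± 6.93 FPKM at 30 WAF and 324 ± 15.4 FPKM at 26 WAF and sedoheptulose-1,7-bisphosphatase (LOC111397888) 62.7 ± 1.86 FPKM at 30 WAF and 91.6 ± 1.89 FPKM at 26 WAF. The most abundant Calvin cycle member after Rubisco, the regulator CP12-3 (LOC111396742), did not pass the test, with 375 ± 9.71 FPKM at 30 WAF and 364 ± 23.5 FPKM at 26 WAF. Among the antenna proteins, chlorophyll a-b binding protein 21 (LOC111402246) averaged 1074 ± 14.6 FPKM at 30 WAF and 1497 ± 118 FPKM at 26 WAF and protein 37 (LOC111412055) 545 ± 12.4 FPKM at 30 WAF and 639.9 ± 44.7 FPKM at 26 WAF. Oxygen-evolving enhancer protein 3 (LOC111396002), of photosystem II, averaged 918 ± 12.3 FPKM at 30 WAF and 1432 ± 82.3 FPKM at 26 WAF. The 8 members that rose include a ferredoxin-NADP reductase of the root type (LOC111396963), with 74.3 ± 0.482 FPKM at 30 WAF and 59.95 ± 2.0 FPKM at 26 WAF, which serves non-green plastids. Rubisco transcripts were nevertheless still above their 17 WAF level: the small chain averaged 751, 3232, 4758 and 2464 FPKM at 17, 21, 26 and 30 WAF.

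Chlorophyll genes divided by direction. Of the genes of chlorophyll synthesis 3 of 30 tested members were higher and 16 lower at 30 WAF, with a median log2 change of -0.17. Protochlorophyllide reductase (LOC111395683), the light-dependent step, had 30.02, 29.2 and 31.4 FPKM at 30 WAF, against 80.8, 78.7 and 81.7 FPKM at 26 WAF, a fall of 2.66-fold. Glutamyl-tRNA reductase (LOC111410189), the entry step, averaged 3.02 ± 0.159 FPKM at 30 WAF and 11.8 ± 0.233 FPKM at 26 WAF, while its copy LOC111384017 rose by 0.28 on the log2 scale. Of the genes of chlorophyll breakdown 8 of 16 were higher and 6 lower, with a median log2 change of 0.01 that became -0.08 after median-of-ratios scaling. The main pheophytinase gene (LOC111384674), which removes the phytol tail, fell to 65.1 ± 0.776 FPKM at 30 WAF, against 146 ± 3.55 FPKM at 26 WAF, and the scarcer copy LOC111365443 rose to 15.6 ± 0.43 FPKM at 30 WAF, against 10.6 ± 0.531 FPKM at 26 WAF. STAY-GREEN (LOC111368827), which extracts magnesium, fell by 1.11-fold, and its scarcer copy LOC111407518 rose 1.39-fold. Chlorophyllase-2 (LOC111377213) averaged 16.9 ± 0.29 FPKM at 30 WAF and 7.65 ± 0.33 FPKM at 26 WAF. The abundant copies of pheophytinase and STAY-GREEN thus had their highest means of the 4 ages at 26 WAF, with 109.6, 124, 146 and 65.1 and 40.8, 93.8, 131 and 118 FPKM over 17, 21, 26 and 30 WAF.

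Carotenoid synthesis genes had no common direction, and the tested genes of carotenoid cleavage were higher. Of the synthesis genes 6 of 19 were higher and 7 lower. Beta-carotene hydroxylase 2 (LOC111393339) averaged 17.4 ± 1.14 FPKM at 30 WAF and 35.4 ± 0.842 FPKM at 26 WAF, a fall of 2.03-fold, and carotene epsilon-monooxygenase (LOC111404128), which leads to lutein, averaged 18.4 ± 0.346 FPKM at 30 WAF and 10.8 ± 0.647 FPKM at 26 WAF. All 3 tested cleavage dioxygenases were higher. Carotenoid cleavage dioxygenase 4 (LOC111387361), which turns carotenoids into volatiles, had 149, 155 and 155 FPKM at 30 WAF, against 75.6, 82.8 and 84.2 FPKM at 26 WAF. The 9-cis-epoxycarotenoid dioxygenase NCED1 (LOC111402235), the committed step of abscisic acid synthesis, had 24.5, 26 and 28.4 FPKM at 30 WAF, against 13.3, 13.6 and 14.6 FPKM at 26 WAF. Both were higher in all 30 WAF libraries, with log2 changes of 0.91 and 0.88.

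Genes of the cold and dehydration response divided into risers and fallers of large size. Of the list of dehydrins, LEA and cold response genes, 27 of 55 were higher and 23 lower, and the median was 0.14. By at least 1 on the log2 scale 14 rose and 10 fell, 25.5% and 18.2% of the list. Over all tested genes 3.69% rose and 3.99% fell by as much. Dehydrins, among the largest risers, are hydrophilic proteins that protect membranes and enzymes as water is lost. Dehydrin DHN1 genes had 239, 246 and 259 FPKM at 30 WAF, against 29.2, 25.3 and 29.4 FPKM at 26 WAF for LOC111401947. LOC111401949 had 831, 865 and 931 FPKM at 30 WAF, against 129, 128 and 139 FPKM at 26 WAF. LOC111379830 had 1522, 1566 and 1673 FPKM at 30 WAF, against 500.2, 482 and 521 FPKM at 26 WAF. All 3 were higher in every 30 WAF library, with log2 changes of 3.11, 2.72 and 1.66, but only LOC111401949 was also above its mean of 774 FPKM at 17 WAF. Cold-regulated 413 plasma membrane protein 2 (LOC111381484) averaged 88.9 ± 2.08 FPKM at 30 WAF and 10.6 ± 0.736 FPKM at 26 WAF, near its mean of 89.9 FPKM at 17 WAF. SRC1 (LOC111387830) had 10918, 10524 and 11332 FPKM at 30 WAF, against 4594, 4009 and 4681 FPKM at 26 WAF, and a scarce SRC1 copy (LOC111411754) had 15.8, 13.7 and 14.6 FPKM at 30 WAF, against 0.76, 0.83 and 1.16 FPKM at 26 WAF.

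Of the 10 genes of this cold response list that fell by at least 1 on the log2 scale, 6 were annotated as transcription factors of the DREB1 family, also called CBF, which switch on cold-protective genes in Arabidopsis. DREB1B (LOC111403895) had 11.2, 10.7 and 10.2 FPKM at 30 WAF, against 192, 182 and 196 FPKM at 26 WAF. DREB1E (LOC111368833) had 4.43, 5.71 and 4.81 FPKM at 30 WAF, against 103, 94.3 and 98 FPKM at 26 WAF, and its copy LOC111407525 had 5.47, 3.59 and 5.18 FPKM at 30 WAF, against 80.2, 78.7 and 81.2 FPKM at 26 WAF. All 3 were among the most strongly reduced genes, with log2 changes of -4.03, -4.06 and -3.83. TINY (LOC111366136), an ERF factor related to them, had 0.91, 1.23 and 0.93 FPKM at 30 WAF, against 34.6, 32.8 and 34.1 FPKM at 26 WAF. Dehydrin transcripts were thus high and DREB1 transcripts low at 30 WAF, while at 17 WAF both were high: DREB1B averaged 405, 229.7, 190.1 and 10.7 FPKM over the 4 ages. The hour of collection is not given in the sources used here. The DREB1 genes follow the daily clock in Arabidopsis, so clock genes are given beside them. Of the morning clock genes 12 of 18 were higher and 4 lower, with a median log2 change of 0.40, and of the evening genes 5 of 18 were higher and 5 lower. None moved by 1 or more. LHY (LOC111392782) averaged 9.57 ± 0.454 FPKM at 30 WAF and 6.06 ± 0.126 FPKM at 26 WAF, REVEILLE 7 (LOC111375280) 9.47 ± 0.155 FPKM at 30 WAF and 5.06 ± 0.159 FPKM at 26 WAF, GIGANTEA (LOC111373055) 35.2 ± 0.803 FPKM at 30 WAF and 54.6 ± 1.13 FPKM at 26 WAF and APRR7 (LOC111377514) 14 ± 1.25 FPKM at 30 WAF and 23.1 ± 2.51 FPKM at 26 WAF. Of the evening genes that rose, EARLY FLOWERING 3 (LOC111391137) averaged 27.5 ± 0.541 FPKM at 30 WAF and 17.3 ± 0.528 FPKM at 26 WAF. APRR5 (LOC111405660) rose 1.75-fold. APRR2 (LOC111389902), which is on the list by its name and is not taken here as a clock gene, rose 1.5-fold. The counts of evening genes above include it. The part of the time of day in the fall of the DREB1 genes was not tested.

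**Figure D4:**
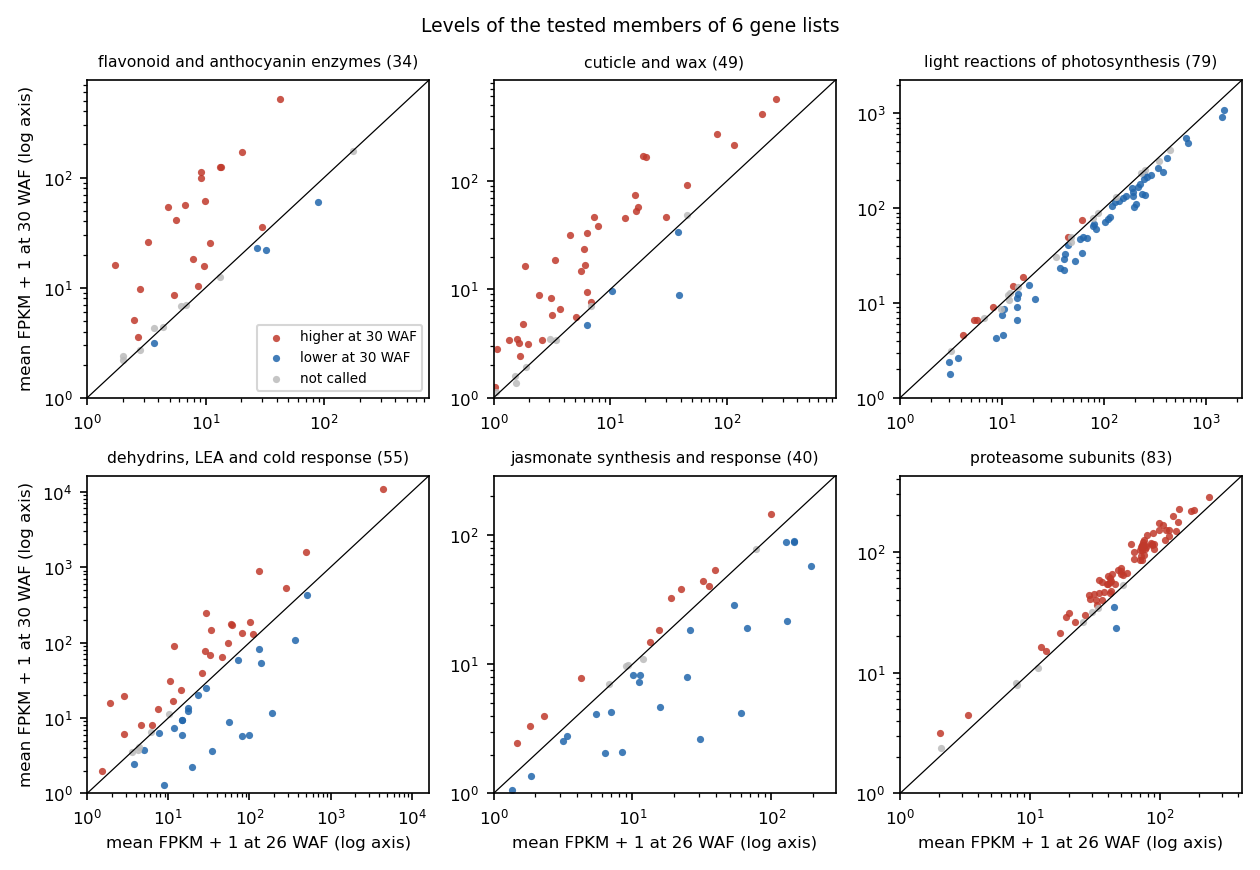
Mean FPKM + 1 at 30 WAF (vertical, log axis) against 26 WAF (horizontal, log axis) for the tested members of 6 gene lists, coloured by call, with the line of equal levels. Anthocyanin and cuticle genes lie mostly above the line and light-reaction genes mostly below it, while the cold response list has members far on both sides.

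More jasmonate genes were lower than higher. Jasmonate is the wound and defence hormone, and TIFY (JAZ) proteins are its fast-induced repressors. Of the jasmonate genes 12 of 40 tested members were higher and 23 lower at 30 WAF, with a median log2 change of -0.33, and 9 fell by at least 1 while none rose by as much. TIFY 5A copies had 3.75, 2.44 and 3.4 FPKM at 30 WAF, against 59.9, 62.6 and 57 FPKM at 26 WAF for LOC111402233 and 1.33, 1.67 and 1.98 FPKM at 30 WAF, against 30.8, 27.7 and 31.2 FPKM at 26 WAF for LOC111412848. TIFY 10b (LOC111409206) averaged 20.9 ± 1.53 FPKM at 30 WAF and 128 ± 9.6 FPKM at 26 WAF and TIFY 10A (LOC111404294) 56.8 ± 3.11 FPKM at 30 WAF and 192 ± 12.8 FPKM at 26 WAF. The jasmonate-responsive transcription factor MYC2 (LOC111398443) averaged 18.2 ± 0.492 FPKM at 30 WAF and 66.2 ± 1.02 FPKM at 26 WAF, and CYP94C1 (LOC111400668), which oxidises the active hormone in Arabidopsis, had 3.6, 4.64 and 4.41 FPKM at 30 WAF, against 76.7, 75.3 and 75.8 FPKM at 26 WAF. All of these genes were lower in every 30 WAF library than in any 26 WAF library. TIFY 10B (LOC111366878) was an exception, with 145 ± 7.37 FPKM at 30 WAF and 99 ± 7.49 FPKM at 26 WAF. Among the synthesis enzymes, 12-oxophytodienoate reductase 3 (LOC111399759) fell by 1.63-fold and its relative reductase 1 (LOC111389541) rose 1.77-fold, while JAR1 (LOC111377782), which makes the active conjugate, rose 1.76-fold.

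Calcium sensors had more large falls than large rises, and WRKY factors had no common direction. Of 116 calmodulin and calcium sensor genes 35 were higher and 52 lower, and 18 fell by at least 1, against 1 that rose by as much. Calcium-binding proteins CML19 had 4.7, 3.44 and 4.17 FPKM at 30 WAF, against 46.7, 46.6 and 49.6 FPKM at 26 WAF for LOC111372555, and CML45 (LOC111400891) had 6.29, 7.17 and 7.26 FPKM at 30 WAF, against 48.5, 50.8 and 44.1 FPKM at 26 WAF. The riser was calmodulin-like protein 8 (LOC111369599), with 23 ± 0.762 FPKM at 30 WAF and 4.17 ± 0.291 FPKM at 26 WAF. The most abundant sensor, calmodulin-7 (LOC111399585), fell by 1.36-fold. Of 84 WRKY genes 33 were higher and 38 lower. The 3 largest falls were all copies of WRKY53 (LOC111379198, LOC111402874 and LOC111381082), of which LOC111381082 averaged 20.6 ± 0.495 FPKM at 30 WAF and 85.4 ± 1.45 FPKM at 26 WAF. WRKY70 (LOC111392938) averaged 93.6 ± 4.33 FPKM at 30 WAF and 172 ± 8.67 FPKM at 26 WAF, and WRKY71 (LOC111407238) rose to 16.4 ± 0.966 FPKM at 30 WAF, against 4.19 ± 0.24 FPKM at 26 WAF.

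Pathogenesis-related genes went mostly the other way from jasmonate genes. Of them 43 of 74 tested members were higher and 10 lower at 30 WAF, with a median log2 change of 0.34, and 20 of the 74 rose by at least 1. An endochitinase EP3 (LOC111393512) averaged 64.9 ± 4.18 FPKM at 30 WAF and 11.7 ± 0.693 FPKM at 26 WAF, MLP-like protein 28 (LOC111386801) 114 ± 4.39 FPKM at 30 WAF and 20.3 ± 1.47 FPKM at 26 WAF, and glucan endo-1,3-beta-glucosidase 14 (LOC111368800) 26.2 ± 1.17 FPKM at 30 WAF and 3.91 ± 0.546 FPKM at 26 WAF. The summed FPKM was nevertheless lower, 5635, 5713 and 5663 at 30 WAF and 8027, 7102 and 8032 at 26 WAF, and the 3 most abundant members differed in direction. Defensin-like protein 179 fell, with 805, 776 and 784 FPKM at 30 WAF, against 3258, 2921 and 3205 FPKM at 26 WAF, and so did a thaumatin-like protein (LOC111407528), which averaged 1617 ± 57.6 FPKM at 30 WAF and 2297 ± 230.5 FPKM at 26 WAF. Defensin-like protein P322 (LOC111369356) rose, with 1225, 1237 and 1167 FPKM at 30 WAF, against 913, 746 and 934 FPKM at 26 WAF (log2 change 0.49, adjusted p = 8.8e-05). Glucan endo-1,3-beta-glucosidase 12 (LOC111395521) was the largest faller in proportion, with 6.02 ± 0.213 FPKM at 30 WAF and 52 ± 1.06 FPKM at 26 WAF.

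The 13-lipoxygenases of the aroma pathway were lower and its 9-lipoxygenases divided. Of 16 tested genes 5 were higher and 9 lower. Chloroplast 13-lipoxygenases feed the green leaf aldehydes of olive oil and jasmonate. Linoleate 13S-lipoxygenase 2-1 (LOC111392344) had 749.6, 747 and 724 FPKM at 30 WAF, against 1426, 1446 and 1471 FPKM at 26 WAF, and 13S-lipoxygenase 3-1 (LOC111366164) had 12.4, 12.4 and 12.8 FPKM at 30 WAF, against 69, 68.7 and 70.3 FPKM at 26 WAF. Fatty acid hydroperoxide lyase (LOC111368519), which releases the aldehydes, had 180.1, 188 and 192 FPKM at 30 WAF, against 438, 412 and 439 FPKM at 26 WAF. These 3 genes had log2 changes of -0.97, -2.38 and -1.2, and all 4 tested 13S-lipoxygenases were lower. Of the 4 tested genes annotated as linoleate 9S-lipoxygenase 5, 2 rose and 2 fell. LOC111410046 rose to 264 ± 5.06 FPKM at 30 WAF, against 143 ± 0.693 FPKM at 26 WAF and LOC111388392 to 24.8 ± 0.727 FPKM at 30 WAF, against 15 ± 0.274 FPKM at 26 WAF, while LOC111368968 fell to a mean of 10.7 FPKM at 30 WAF, against 18.6 FPKM at 26 WAF, and LOC111386480 to 21.6 FPKM at 30 WAF, against 25 FPKM at 26 WAF (both named after their values were seen). Over 17, 21, 26 and 30 WAF, LOC111410046 averaged 20.7, 38.3, 143 and 264 FPKM, and LOC111392344 558, 1536, 1448 and 740.1.

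Ethylene genes were mostly higher. Ethylene is made by 1-aminocyclopropane-1-carboxylate (ACC) synthase and ACC oxidase, and olive is held to ripen without an ethylene burst. Of the list 18 of 24 tested members were higher and 1 lower at 30 WAF, with a median log2 change of 0.31. ACC oxidase genes had 127, 122 and 129.6 FPKM at 30 WAF, against 43.5, 38.1 and 46.1 FPKM at 26 WAF for LOC111370655 and 42.5, 44.4 and 46.2 FPKM at 30 WAF, against 13.4, 13.1 and 14.1 FPKM at 26 WAF for LOC111370656. The only member that fell was an ACC synthase (LOC111380501), with 0.64, 0.58 and 0.44 FPKM at 30 WAF, against 5.48, 5.55 and 5.34 FPKM at 26 WAF. The EIN3-binding F-box protein 2 (LOC111387870), which limits the response, averaged 51.8 ± 1.06 FPKM at 30 WAF and 10.8 ± 1.02 FPKM at 26 WAF, and ethylene receptor 2 (LOC111370876) rose 1.18-fold. Of the EIN3 factors themselves, LOC111391955 rose by 0.15 on the log2 scale, and LOC111401530 by 0.08, a change that fell below 0 after median-of-ratios scaling.

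More abscisic acid genes were higher than lower, and genes of synthesis moved both ways. Of the list 25 of 44 tested members were higher and 9 lower at 30 WAF, with a median log2 change of 0.29. That is 56.8% and 20.5%, against 42% and 24.3% over all tested genes. After median-of-ratios scaling 23 were higher and 12 lower, with a median of 0.19. Beside NCED1, abscisic acid 8'-hydroxylase 4 (LOC111410611), the enzyme that inactivates the hormone, had 202, 203 and 204 FPKM at 30 WAF, against 69.8, 72.4 and 74.5 FPKM at 26 WAF. Protein phosphatase 2C 37 (LOC111383955), a negative regulator of the response, had 76.2, 77 and 80.7 FPKM at 30 WAF, against 32.7, 29.98 and 30.9 FPKM at 26 WAF. Abscisic stress-ripening protein 2 (LOC111408760) had 2262, 2441 and 2586 FPKM at 30 WAF, against 1050.2, 1042 and 1159 FPKM at 26 WAF. All 3 were more than 2 times as high at 30 WAF and did not overlap, whereas a second abundant abscisic stress-ripening gene (LOC111408761) did not pass the test, with 1853 ± 42.4 FPKM at 30 WAF and 1969 ± 87.5 FPKM at 26 WAF. Abscisic-aldehyde oxidase (LOC111405868) fell by 1.75-fold. Auxin response genes had no common direction, with 43 of 100 higher and 39 lower. SAUR50 (LOC111412088) rose 7.42-fold and the auxin carrier PIN-LIKES 7 (LOC111376321) 4.92-fold, while auxin response factor 18 (LOC111409930) fell to 3.24 ± 0.165 FPKM at 30 WAF, against 31 ± 0.362 FPKM at 26 WAF.

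Oil synthesis genes were slightly higher, with a few large exceptions. Of the plastid fatty acid synthesis genes 32 of 46 tested members were higher and 9 lower at 30 WAF, with a median log2 change of 0.23 (0.13 after median-of-ratios scaling). Acyl carrier protein 1 (LOC111375813), which carries the growing chain, averaged 2711 ± 91.9 FPKM at 30 WAF and 2508 ± 82.6 FPKM at 26 WAF, and its second copy (LOC111382153) 1584 ± 25.7 FPKM at 30 WAF and 1188 ± 47 FPKM at 26 WAF. A biotin carboxyl carrier protein of acetyl-CoA carboxylase (LOC111405363), the committed step, went against them with 78.1, 80.2 and 82.8 FPKM at 30 WAF, against 239, 234 and 247 FPKM at 26 WAF. Biotin carboxylase 2 (LOC111381771) of the same complex fell by 1.5-fold. Stearoyl-ACP desaturase (LOC111375456), which makes the oleate that dominates olive oil, averaged 1567 ± 31.8 FPKM at 30 WAF and 1748 ± 14.6 FPKM at 26 WAF, a fall of 1.12-fold. Of the other desaturases, the FAD2 copy that makes linoleate at the higher level (LOC111399693) had 139, 142 and 148 FPKM at 30 WAF, against 311, 309 and 315 FPKM at 26 WAF, while a scarcer FAD2 copy (LOC111390764) had 26.8, 26.2 and 29.1 FPKM at 30 WAF, against 8.12, 7.49 and 7.59 FPKM at 26 WAF. The 2 copies thus moved in opposite directions, with log2 changes of -1.12 and 1.7. Plastid omega-3 desaturases, which make linolenate, fell by 1.65-fold (LOC111403039) and 3.46-fold (LOC111403247).

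Of the triacylglycerol assembly and oil body genes 18 of 28 tested members were higher and 4 lower at 30 WAF, with a median log2 change of 0.24. Diacylglycerol O-acyltransferase 1A (LOC111383725), which adds the last fatty acid, was the largest faller, with 17.7, 16.5 and 17.2 FPKM at 30 WAF, against 94.5, 95.6 and 91.8 FPKM at 26 WAF (log2 change -2.39, SE 0.041, adjusted p = 4.9e-14). Its level had been 79, 93.4, 94 and 17.1 FPKM at 17, 21, 26 and 30 WAF. Phosphatidylcholine:diacylglycerol cholinephosphotransferase (LOC111370795) did not pass the test, with 135 ± 4.67 FPKM at 30 WAF and 128 ± 5.89 FPKM at 26 WAF. Oleosin 20.3 kDa (LOC111402449), a coat protein of oil bodies, averaged 257 ± 6.95 FPKM at 30 WAF and 147 ± 11.4 FPKM at 26 WAF. Glycerol-3-phosphate acyltransferase 8 (LOC111411720), of a family that in Arabidopsis makes cutin, averaged 102 ± 2.19 FPKM at 30 WAF and 29.1 ± 0.389 FPKM at 26 WAF. For breakdown, 13 of 27 genes of beta-oxidation and lipases were higher and 5 lower, none by 1 or more. 3-Ketoacyl-CoA thiolase 2 (LOC111392597) averaged 194 ± 2.58 FPKM at 30 WAF and 149 ± 2.69 FPKM at 26 WAF and the lipase ABHD6 (LOC111408999) 183 ± 7.97 FPKM at 30 WAF and 105 ± 3.88 FPKM at 26 WAF.

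More genes of sterols and triterpenes were higher than lower, with copies of the key enzyme moving both ways. Of the list 45 of 76 tested members were higher and 10 lower at 30 WAF, with a median log2 change of 0.27. That is 59.2% and 13.2%, against 42% and 24.3% over all tested genes. After median-of-ratios scaling 38 were higher and 15 lower, with a median of 0.18. The summed FPKM was 4415, 4474 and 4445 at 30 WAF and 3015, 3003 and 2993 at 26 WAF. 3-Hydroxy-3-methylglutaryl-CoA reductase is the main control step of the mevalonate pathway. Its copy LOC111401248 had 70.3, 74.8 and 75.4 FPKM at 30 WAF, against 13.9, 15.5 and 15.4 FPKM at 26 WAF, and LOC111387692 averaged 19.1 ± 1.15 FPKM at 30 WAF and 6.3 ± 0.352 FPKM at 26 WAF. The other named copies fell, LOC111409359 to 5.51 ± 0.101 FPKM at 30 WAF, against 18.3 ± 0.73 FPKM at 26 WAF and LOC111410512 to 16.3 ± 0.615 FPKM at 30 WAF, against 28.4 ± 0.793 FPKM at 26 WAF. Beta-amyrin 28-oxidases are of a family that makes oleanolic acid, a triterpene of the olive surface. Genes of that name had 599, 606 and 605 FPKM at 30 WAF, against 234, 220.3 and 228 FPKM at 26 WAF for LOC111374953 and 374, 401 and 388 FPKM at 30 WAF, against 185, 183 and 183 FPKM at 26 WAF for LOC111365629. They were the most abundant members of the list with a cytosolic acetyl-CoA acetyltransferase (LOC111390947), at 654 ± 18.7 FPKM at 30 WAF and 422 ± 5.54 FPKM at 26 WAF. Squalene synthase (LOC111379472) averaged 19.97 ± 1.28 FPKM at 30 WAF and 6.67 ± 0.239 FPKM at 26 WAF.

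Among the genes linked to bitterness, the largest difference in FPKM was in 1 abundant beta-glucosidase gene, while scarcer genes changed more in proportion. Beta-glucosidase (LOC111404214), an enzyme of the kind that splits the glucose from oleuropein, had 5469.9, 5274 and 5288 FPKM at 30 WAF, against 10794, 11241 and 10329 FPKM at 26 WAF (log2 change -1.01, SE 0.037, adjusted p = 7.1e-11). It alone made most of the summed FPKM of polyphenol oxidases and beta-glucosidases, 5870.1, 5677 and 5681 at 30 WAF and 11291, 11742 and 10816 at 26 WAF. Polyphenol oxidase I (LOC111375437), which browns phenols, averaged 30.9 ± 0.475 FPKM at 30 WAF and 71 ± 2.46 FPKM at 26 WAF. Some scarce beta-glucosidases rose, LOC111381384 to 12.3 ± 1.38 FPKM at 30 WAF, against 1.34 ± 0.0436 FPKM at 26 WAF and LOC111403992 to 8.21 ± 0.182 FPKM at 30 WAF, against 2.62 ± 0.206 FPKM at 26 WAF, and the abundant beta-glucosidase 11 (LOC111412393) did not pass the test, with 164 ± 3.09 FPKM at 30 WAF and 161 ± 3.27 FPKM at 26 WAF. Of the iridoid and secoiridoid genes 17 of 32 tested members were higher and 8 lower at 30 WAF, with a median log2 change of 0.13. That is 53.1% and 25%, against 42%, 24.3% and a median of 0.10 over all tested genes. After median-of-ratios scaling 15 were higher and 11 lower, with a median of 0.03. 8-Hydroxygeraniol dehydrogenase (LOC111376665), an early step, had 159, 154 and 156 FPKM at 30 WAF, against 32.1, 31.9 and 33.2 FPKM at 26 WAF, and LOC111387381 averaged 231 ± 6.01 FPKM at 30 WAF and 155 ± 0.989 FPKM at 26 WAF. The 7-deoxyloganetic acid glucosyltransferases differed by copy: the most abundant, LOC111376443, rose only 1.08-fold, LOC111387685 rose 2.66-fold, and LOC111377611 fell 2.39-fold. A 3-oxo-Delta(4,5)-steroid 5-beta-reductase (LOC111394633), of the family of iridoid synthase, fell to 94 ± 1.78 FPKM at 30 WAF, against 140.2 ± 1.49 FPKM at 26 WAF.

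Cell wall genes changed by large amounts in both directions. Of the list of expansins, xyloglucan enzymes and endoglucanases, 24 of 51 were higher and 23 lower, with 15 rising and 9 falling by at least 1. Expansins loosen walls without cutting them. Expansin-A15 (LOC111381719) had 3109, 3139 and 3177 FPKM at 30 WAF, against 1611, 1603 and 1638 FPKM at 26 WAF. Expansin-A8 (LOC111384671) had 1055, 1050.2 and 1090.0 FPKM at 30 WAF, against 271, 268 and 263 FPKM at 26 WAF. The scarce copies expansin-A8 (LOC111397188) and expansin-A11 (LOC111376668) rose 12.7-fold and 12.1-fold. Of the 15 tested expansin and expansin-like genes 11 were higher and 4 lower, and expansin-A15 (LOC111381719) had been 177, 448, 1617 and 3142 FPKM over 17, 21, 26 and 30 WAF. Xyloglucan endotransglucosylase/hydrolase 23, which cuts and rejoins the tethers between cellulose fibres, fell in 5 of 6 tested copies. LOC111391445 had 1.28, 1.49 and 0.91 FPKM at 30 WAF, against 33.8, 31.1 and 36.4 FPKM at 26 WAF, and LOC111391439 averaged 1.58 ± 0.04 FPKM at 30 WAF and 31.1 ± 0.683 FPKM at 26 WAF and LOC111391451 0.663 ± 0.197 FPKM at 30 WAF and 12.7 ± 0.644 FPKM at 26 WAF.

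Pectin genes moved with no common direction, 46 of 110 higher and 31 lower, with a median log2 change of 0.06 that became -0.01 after median-of-ratios scaling. Pectate lyase 18 (LOC111405311), which cuts pectin and softens fruit, had 692, 695 and 716 FPKM at 30 WAF, against 135, 136 and 128 FPKM at 26 WAF. Pectate lyase 8 (LOC111379453) averaged 310.4 ± 12.2 FPKM at 30 WAF and 163 ± 2.45 FPKM at 26 WAF. The pectin-building galacturonosyltransferase 9 (LOC111367899) had 14.6, 15 and 16.3 FPKM at 30 WAF, against 108, 109 and 109 FPKM at 26 WAF, and a scarce polygalacturonase (LOC111401119) fell to 2.47 ± 0.234 FPKM at 30 WAF, against 19.4 ± 1.69 FPKM at 26 WAF. Beta-galactosidase (LOC111387481), which trims side chains, averaged 365 ± 1.81 FPKM at 30 WAF and 496 ± 2.41 FPKM at 26 WAF. Of the cellulose synthases and arabinogalactan proteins 13 of 54 tested members were higher and 27 lower at 30 WAF, with a median log2 change of -0.20, and 9 fell by at least 1 against 1 that rose. COBRA-like protein 7 (LOC111393401), of a family that orders cellulose, had 9.09, 10.6 and 9.62 FPKM at 30 WAF, against 174, 168 and 166 FPKM at 26 WAF. Cellulose synthase A 2 (LOC111377257) averaged 1.55 ± 0.151 FPKM at 30 WAF and 18.9 ± 1.12 FPKM at 26 WAF, and fasciclin-like arabinogalactan protein 17 (LOC111412283) 6.04 ± 0.635 FPKM at 30 WAF and 46.8 ± 0.15 FPKM at 26 WAF.

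Some genes of sugar and polyol transport and of water channels rose by large amounts. Olive moves mannitol, a polyol, beside sugars. Of the sugar list 33 of 63 tested members were higher and 18 lower at 30 WAF, with a median log2 change of 0.18 (0.07 after median-of-ratios scaling). That is 52.4% higher and 28.6% lower, against 42% and 24.3% over all tested genes, and 11 rose and none fell by at least 1. Polyol transporter 1 had 96.8, 99 and 96.2 FPKM at 30 WAF, against 10.1, 9.52 and 9.52 FPKM at 26 WAF for LOC111399533, and the far more abundant LOC111399534 averaged 1576 ± 7.2 FPKM at 30 WAF and 1135 ± 21.2 FPKM at 26 WAF. Sugar transport protein 13 (LOC111369468) had 46.8, 45.5 and 45 FPKM at 30 WAF, against 8.04, 8.1 and 8.05 FPKM at 26 WAF. An NADP-dependent sorbitol-6-phosphate dehydrogenase (LOC111388601) rose to 811 ± 9.52 FPKM at 30 WAF, against 536 ± 8.14 FPKM at 26 WAF. Sorbitol dehydrogenase (LOC111373656), which oxidises a polyol, averaged 139 ± 2.39 FPKM at 30 WAF and 257 ± 6.3 FPKM at 26 WAF, whereas sucrose synthase (LOC111366090), the main entry of sucrose, had a log2 change of only -0.05 (378 ± 4.44 FPKM at 30 WAF and 393 ± 1.95 FPKM at 26 WAF, adjusted p = 0.046). Starch genes had no common direction, with 16 of 49 higher and 21 lower. Beta-amylase 3 (LOC111390256) fell to 4.14 ± 0.334 FPKM at 30 WAF, against 14.2 ± 0.312 FPKM at 26 WAF. Of the aquaporins 21 of 34 tested members were higher and 8 lower at 30 WAF, with a median log2 change of 0.44. TIP2-1 (LOC111371488), a vacuolar channel, had 59, 58 and 59.8 FPKM at 30 WAF, against 10.2, 8.37 and 8.34 FPKM at 26 WAF, and PIP2-1 (LOC111378025), of the plasma membrane, 55, 52.2 and 48.4 FPKM at 30 WAF, against 12.1, 10.8 and 11 FPKM at 26 WAF. TIP1-1 (LOC111393963), the most abundant, had 2768, 2712 and 2687 FPKM at 30 WAF, against 2059, 1561 and 1859 FPKM at 26 WAF, with library B again the lowest at 26 WAF. Of 3 tested TIP1-2 copies 2 fell, LOC111393814 to 5.72 ± 0.691 FPKM at 30 WAF, against 17.4 ± 1.1 FPKM at 26 WAF.

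Genes of protein synthesis and turnover rose widely by small amounts. Of the cytosolic ribosomal protein genes 251 of 343 tested members were higher and 9 lower at 30 WAF, with a median log2 change of 0.27, which became 193 higher, 27 lower and a median of 0.17 after median-of-ratios scaling. Their summed FPKM was 31837, 31926 and 32215 at 30 WAF and 26568, 25034 and 26859.7 at 26 WAF. S25-2 (LOC111388246) averaged 300.0 ± 5.89 FPKM at 30 WAF and 169 ± 11.3 FPKM at 26 WAF and S29 (LOC111388706) 83.1 ± 2.94 FPKM at 30 WAF and 44.7 ± 2.13 FPKM at 26 WAF. Values of single ribosomal genes are uncertain where copies share reads: the L14-2 copies LOC111393295 and LOC111393298 moved in opposite directions and included libraries at 0. Proteasome subunits, of the machine that degrades ubiquitin-tagged proteins, moved together, since 73 of 83 tested members were higher and 2 lower at 30 WAF, with a median log2 change of 0.43. Regulatory subunit 14 (LOC111408810) had 113, 117 and 117 FPKM at 30 WAF, against 56.3, 59.1 and 61 FPKM at 26 WAF, and alpha type-4 (LOC111380553) 171, 168 and 172 FPKM at 30 WAF, against 99, 92.2 and 99.5 FPKM at 26 WAF. The 2 that fell were non-ATPase subunits 10 (LOC111377486) and 12 (LOC111366816), by 2.02-fold and 1.27-fold. Of the autophagy and vacuolar protease genes 49 of 94 were higher and 20 lower. That is 52.1% and 21.3%, against 42% and 24.3% over all tested genes. After median-of-ratios scaling 40 were higher and 26 lower. Cysteine proteinase 3 (LOC111385176) fell to 1102 ± 17.3 FPKM at 30 WAF, against 2016 ± 34.1 FPKM at 26 WAF, and aspartic proteinase PCS1 (LOC111385663) to 37.3 ± 0.544 FPKM at 30 WAF, against 123 ± 2.0 FPKM at 26 WAF.

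Mitochondrial respiration genes were also higher in small steps, since 60 of 102 tested members were higher and 11 lower at 30 WAF, with a median log2 change of 0.20. That is 58.8% and 10.8%, against 42% and 24.3% over all tested genes. After median-of-ratios scaling 47 were higher and 21 lower, with a median of 0.10. ATP synthase subunit O (LOC111386536) averaged 142 ± 7.28 FPKM at 30 WAF and 88.7 ± 3.17 FPKM at 26 WAF and cytochrome c oxidase subunit 6a (LOC111365434) 210.2 ± 6.27 FPKM at 30 WAF and 139.9 ± 12.8 FPKM at 26 WAF. Of 4 tested copies of uncoupling protein 5, a carrier of the inner membrane, 1 rose and 2 fell, LOC111367534 to 32.8 ± 0.73 FPKM at 30 WAF, against 134 ± 7.08 FPKM at 26 WAF and LOC111367529 to 17.6 ± 1.3 FPKM at 30 WAF, against 58.5 ± 1.02 FPKM at 26 WAF. Of the cell cycle, replication and histone genes 52 of 78 tested members were higher and 10 lower at 30 WAF, with a median log2 change of 0.40. Histone H1 genes, linker histones, averaged 47.8 ± 2.18 FPKM at 30 WAF and 13.6 ± 0.5 FPKM at 26 WAF (LOC111391418) and 111 ± 9.57 FPKM at 30 WAF and 39.2 ± 0.748 FPKM at 26 WAF (LOC111411852). A histone H2A.1 gene (LOC111408072) ran against them, with 14.2, 11.9 and 12.3 FPKM at 30 WAF, against 162, 154 and 152 FPKM at 26 WAF, and cyclin-D3-3 (LOC111367209), which starts the cell cycle, fell by 2.06-fold. Heat shock proteins and chaperones divided evenly, with 59 of 165 higher and 63 lower. Heat shock protein 83 (LOC111393347) fell to 7.6 ± 0.2 FPKM at 30 WAF, against 28 ± 2.07 FPKM at 26 WAF and heat shock cognate 70 (LOC111385111) to 348 ± 9.58 FPKM at 30 WAF, against 556 ± 13.1 FPKM at 26 WAF. Of the genes that remove reactive oxygen, 28 of 60 were higher and 12 lower, none of the higher ones by 1 or more. Catalase isozyme 3 (LOC111371766) fell by 1.1-fold, and peroxiredoxin-2E-2 (LOC111412721) fell to 13.8 ± 0.55 FPKM at 30 WAF, against 34.6 ± 0.479 FPKM at 26 WAF.

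Transcription factor families were split. By at least 1 on the log2 scale, 8 of 64 NAC, 11 of 90 bHLH and 13 of 84 WRKY genes fell (12.5%, 12.2% and 15.5%). In the same families 5, 5 and 8 genes rose by as much (7.81%, 5.56% and 9.52%). Of 79 MYB genes 12 rose and 5 fell (15.2% and 6.33%), and of 59 homeobox-leucine zipper genes 10 rose and 0 fell (16.9% and 0%). Over all tested genes 3.69% rose and 3.99% fell by at least 1. Of 64 NAC genes 31 were higher and 24 lower. NAC91 (LOC111404243) had 60.3, 60.9 and 57.8 FPKM at 30 WAF, against 373, 388 and 357 FPKM at 26 WAF. NAC68 (LOC111371331) averaged 21.3 ± 0.534 FPKM at 30 WAF and 102 ± 5.04 FPKM at 26 WAF, while NAC72 (LOC111394752), a stress factor in Arabidopsis, averaged 161 ± 2.89 FPKM at 30 WAF and 56.5 ± 2.14 FPKM at 26 WAF and NAC21/22 (LOC111407126) 29.9 ± 1.8 FPKM at 30 WAF and 6.73 ± 0.0361 FPKM at 26 WAF. Of 153 ERF and AP2 genes 59 were higher and 58 lower, with 29 falling and 16 rising by at least 1. RAP2-3 (LOC111371498), the most abundant of the list over the 6 libraries, averaged 404 ± 7.64 FPKM at 30 WAF and 901 ± 57.7 FPKM at 26 WAF, and ABR1 (LOC111409375) rose to 65.3 ± 1.69 FPKM at 30 WAF, against 14.5 ± 0.812 FPKM at 26 WAF. RAP2-12 (LOC111367665), an oxygen-sensing factor, did not pass the test, with 547 ± 7.8 FPKM at 30 WAF and 562 ± 1.2 FPKM at 26 WAF. Of 79 MYB genes 42 were higher and 19 lower, and of 90 bHLH genes 38 and 34. bHLH145 (LOC111389135) fell to 13.3 ± 0.365 FPKM at 30 WAF, against 53.6 ± 0.698 FPKM at 26 WAF and bHLH75 (LOC111399002) rose to 533 ± 6.8 FPKM at 30 WAF, against 355 ± 2.75 FPKM at 26 WAF. Of 56 MADS-box and SPL genes 21 were higher and 18 lower. The AGAMOUS-like gene LOC111412195, of the family that specifies carpels and fruit, averaged 635 ± 14.5 FPKM at 30 WAF and 558 ± 9.71 FPKM at 26 WAF, AGL9 (LOC111406228) 399 ± 7.93 FPKM at 30 WAF and 488 ± 8.66 FPKM at 26 WAF and SPL8 (LOC111411543) 55.3 ± 3.15 FPKM at 30 WAF and 132 ± 3.46 FPKM at 26 WAF. Among the homeobox-leucine zipper genes, 31 of 59 higher and 11 lower, ATHB-12 (LOC111379783), induced by abscisic acid in Arabidopsis, rose to 21.2 ± 1.5 FPKM at 30 WAF, against 4.97 ± 0.351 FPKM at 26 WAF.

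Genes listed as markers of seed and of the stone and vessels had low summed FPKM, unlike the cuticle and wax genes of the epidermis given above. Seed storage protein genes, which would mark seed, had 6 tested members of 22, of which 2 were higher and 3 lower. Their summed FPKM was 107, 104 and 111 at 30 WAF and 124, 122 and 122 at 26 WAF. A vicilin-like gene (LOC111393661) made most of it, with 64.7 ± 2.17 FPKM at 30 WAF and 84.7 ± 2.05 FPKM at 26 WAF, and 4 members were at 0 in all 6 libraries. Lignin and secondary wall genes, which would mark the stone and vessels, had 13 tested members of 88, of which 6 were higher and 2 lower, and 24 members were at 0 in all 6 libraries. Their summed FPKM was 281, 283 and 289 at 30 WAF and 227, 222 and 234 at 26 WAF. Laccase-15 (LOC111408785) rose to 15.9 ± 0.591 FPKM at 30 WAF, against 3.98 ± 0.0896 FPKM at 26 WAF, and dirigent protein 22 (LOC111383984) to 70.7 ± 2.24 FPKM at 30 WAF, against 25 ± 2.37 FPKM at 26 WAF. No list used here marks mesocarp alone. The plastid fatty acid synthesis genes, with 46 tested members, summed to 12467, 12691 and 12834 at 30 WAF and 11677, 11487 and 11783 at 26 WAF. The lists differ in their genes and in number of members, so these sums do not give the share of each tissue.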

How the data were processed

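Mesocarp RNA was obtained by CTAB extraction followed by a DNase-treated column clean-up, and the 12 libraries were read on a DNBseq instrument, per the labels' protocols. The deposited table gives FPKM for each gene in each library, computed by the authors. Per the submitters' processing notes, the tools were RSEM, Bowtie2 2.2.5, HISAT2 2.0.4 and StringTie 1.0.4, with no role stated for any. Build, annotation and strandedness were not given in the sources used here. No coordinates or sequences are therefore printed, and values of overlapping antisense genes and near-identical copies are uncertain. Names are those of the table, mostly without the ending "-like", and do not establish function. All 37991 described genes matched the reference gene table by ID, and the other 13017 are not named. Whole reads could not be recovered: among 1611 genes at 0.1 to 0.6 FPKM, the most frequent ratio between libraries, with a tolerance of 0.1 (log2), held for 9.99 to 16.0%.

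Each of the 26131 genes was modelled as log2(FPKM + 1) in limma 3.58.1 (R 4.3.3), with 4 age means over 12 libraries and a variance trend. P-values are 2-sided with Benjamini-Hochberg adjustment over all tested genes and a threshold of 0.05. The 56 gene lists are patterns in gene descriptions. The comparison and the lists were chosen with earlier results of these data known. The list of HD-ZIP IV genes was added, and 2 members of other lists (GDAP2 and lecithin-cholesterol acyltransferase genes) were removed for their descriptions, after values had been seen. Genes named are the 12 largest rises and falls (at least 10 FPKM at the higher age, no overlap), the 10 highest at 30 WAF, the 10 largest FPKM gains and losses, and, per list, the 3 most abundant members and the 3 largest rises and falls (at least 5 FPKM). In data simulated for 26131 genes with normal noise, 50 genes were changed for each size, 0.5 and 1 (log2) in either direction. All changed genes had a mean of at least 5 FPKM. The procedure recovered 94% of those raised by 0.5 and 96% of those lowered by 0.5, with 4 false calls. Scarcer genes were not changed and no scaling shift was simulated, so these values do not give the error rate of the calls above. The settings varied were the pseudocount (0.1), the filter (none, or a mean of at least 5 FPKM), TPM and median-of-ratios scaling, library weights, only the 2 ages, a replicate block, and each library left out.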

Additional observations from a re-analysis of the deposited data

How the results depend on the processing

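The numbers of genes higher and lower at 30 WAF, 10984 and 6343 as deposited, stayed within 1.5 times under every alternative run. They were 10917 and 6360 with a pseudocount of 0.1, 11864 and 6838 with no filter (46335 genes), 7866 and 4547 with a mean of at least 5 FPKM (16697 genes), 9916 and 6949 with TPM scaling, 8517 and 8089 with median-of-ratios scaling, 11015 and 6239 with library weights, and 10549 and 5992 with only the 2 ages. With each library left out in turn they were 10271 to 10668 and 5791 to 6097. A replicate block on the letters A, B and C gave 10889 and 6288. Deviations of same-lettered libraries correlated at 0.003, 0.011 and 0.053, and those of differently lettered libraries at -0.049 to 0.041. No clear shared effect of the letters was thus seen, which does not settle whether they pair the samples. Median-of-ratios scaling reversed small changes: EIN3 (LOC111401530) became -0.027 and beta-glucosidase 11 (LOC111412393) -0.080 on the log2 scale, and the cause was not tested. Read depth is not known, so no limit from counting error is given.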

Other observations

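Secreted class III peroxidases, which couple phenols in cell walls, had 11 of 17 tested members higher and 5 lower at 30 WAF, with a median log2 change of 0.60. Peroxidase 73 (LOC111367232) had 85.8, 84.7 and 84.5 FPKM at 30 WAF, against 38.5, 35.3 and 40.3 FPKM at 26 WAF, and peroxidase 52 (LOC111395007) averaged 28.2 ± 1.6 FPKM at 30 WAF and 7.9 ± 0.411 FPKM at 26 WAF. Copies named peroxidase 42 moved both ways, LOC111402428 rising to 10.04 ± 0.545 FPKM at 30 WAF, against 4.49 ± 0.323 FPKM at 26 WAF and LOC111395952 falling to 9.76 ± 0.179 FPKM at 30 WAF, against 30.2 ± 0.927 FPKM at 26 WAF. Of the cytochrome P450 genes 45 of 88 were higher and 25 lower. CYP72A219 (LOC111388647) averaged 667 ± 10.1 FPKM at 30 WAF and 464 ± 3.98 FPKM at 26 WAF, P450 71A8 (LOC111399662) averaged 306 ± 3.42 FPKM at 30 WAF and 527 ± 13.4 FPKM at 26 WAF, and CYP82D47 (LOC111387370), with 646 ± 6.24 FPKM at 30 WAF and 655 ± 5.93 FPKM at 26 WAF, did not pass the test. Of the metallothioneins 4 of 7 were higher and 2 lower. Metallothionein-like protein 2 (LOC111388944) rose to 167 ± 4.75 FPKM at 30 WAF, against 74.2 ± 6.46 FPKM at 26 WAF, and a type 2 gene (LOC111374757) fell to 524 ± 33.6 FPKM at 30 WAF, against 972 ± 60.4 FPKM at 26 WAF. Of the UDP-glycosyltransferases 35 of 74 were higher and 22 lower. UDP-glycosyltransferase 74F2 (LOC111378206) fell to 12.2 ± 0.587 FPKM at 30 WAF, against 31.8 ± 1.07 FPKM at 26 WAF, and 83A1 (LOC111387496) to 16 ± 0.871 FPKM at 30 WAF, against 38.6 ± 1.28 FPKM at 26 WAF. Organelle ribosomal protein genes had 69 of 117 members higher and 5 lower, with a median log2 change of 0.22.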
